A study of Arabidopsis thaliana with 14 samples.

Results

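Seedlings of hda6-6, which carry a mutation in the histone deacetylase gene HDA6, were set directly against seedlings of hda9-1, which are labelled as mutant for the related gene HDA9. The comparison took the RNA-seq libraries labelled with these genotypes, 3 of hda6-6 and 3 of hda9-1, out of 14 libraries in the series, and no wild-type library entered the contrast. The hda6-6 allele, also called axe1-5, is a point mutation at a splice site of HDA6. The hda9-1 allele is not described in the sources used here, and the paper does not analyse these plants. Both mutants were in the Col-0 background, and RNA was taken from whole seedlings after 14 days in long days. The 3 hda5-1, 3 Col, 1 fve-4 and 1 fld-6 libraries of the same age stand beside the comparison only as measured values. Expression was given as RPKM, the reads of a gene scaled to its exon length and to the mapped reads of the library. It was compared as log2(RPKM + 0.1) in the 22320 genes of 33602 that were above 0.1 RPKM in at least 3 of the 6 libraries. A gene was called when its adjusted p was under 0.05 in limma, a linear model fitted over all genes, and its log2 difference was at least 1, which is 2-fold on that scale.

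Histone deacetylases take acetyl groups off histone tails, and their removal generally goes with a more compact and less transcribed chromatin. In Arabidopsis, HDA6 is known for silencing transposable elements and repeated genes together with DNA methylation, and for repressing floral repressor genes with FLD and FVE. HDA9 belongs to the same RPD3-type family, works with the SANT-domain protein PWR, and is known for roles in flowering, leaf ageing and seed traits.

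The mutated genes were looked at first. HDA6 (AT5G63110, chromosome 5) had 3.46, 3.62 and 2.84 RPKM in hda6-6, against 8.78, 9.83 and 11.2 RPKM in hda9-1, and Col lay between 8.58 and 10.01 RPKM. HDA6 was lower in hda6-6 by the fit, with a log2 difference of -1.56 ± 0.16 (SE) and an adjusted p of 0.00035 in limma. HDA9 (AT3G44680, chromosome 3) had 4.77, 4.66 and 5.10 RPKM in hda6-6, against 0.693, 0.588 and 0.399 RPKM in hda9-1, and Col lay between 4.39 and 5.65 RPKM. Its log2 difference was 2.93 ± 0.21 (SE), with an adjusted p of 6.0e-05 in limma. Each mutant thus had less RNA of its own mutated gene than any library of the other, and neither gene was at 0 in its mutant.

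Most other deacetylases of the family were not called. Of the 10 tested family members, 2 were called higher and 1 lower. Beside HDA9 and HDA6, the third call was HDA7, with 0.171, 0.189 and 0.190 RPKM in hda6-6, while it was listed at 0 in all 3 hda9-1 libraries. HDA7 passed the filter through hda6-6 alone, and its call was lost with 1 in place of 0.1 added to RPKM (0.24) and under quantile normalization (0.85). HDA19, the most abundant member, had 38.6 to 40.9 RPKM in hda6-6 and 35.9 to 40.6 RPKM in hda9-1, and the groups overlapped.

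Between replicates of the same genotype, the Pearson correlation over genes was 0.981 to 0.985 in hda6-6 and 0.977 to 0.983 in hda9-1, and between genotypes it was 0.941 to 0.951. These are correlations across genes, which are not independent replicates. As worked out from the size of the smallest steps in RPKM, mapped reads came to 21.3 to 23.7 M reads in hda6-6 and 17.8 to 22.1 M reads in hda9-1. Summed chloroplast-encoded RPKM ranged from 974 to 10212 in hda6-6 and from 1115 to 3653 in hda9-1, with hda6-6 replicate 3 the highest, and 0 of 118 tested chloroplast genes were called, with a median log2 difference of 0.50. At an unadjusted p under 0.05 and 2-fold, 2026 genes of all classes passed in place of 1798.

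Markers of tissues were then compared. The green-leaf gene LHCB1.3, a chlorophyll-binding antenna protein, was at 35828 to 36878 RPKM in hda6-6 and 27343 to 35121 RPKM in hda9-1, which did not overlap, and it was not called, with a log2 difference of 0.23 ± 0.26 (SE). None of the 7 root markers was called, and PYK10, a root beta-glucosidase, had 1242 to 1616 RPKM in hda6-6 and 1059 to 1422 RPKM in hda9-1. None of the 15 seed maturation genes was high enough to be tested. Of the 5 tested flower organ markers, 1 was called, SEP3, which is described with the flowering genes. In whole seedlings, fewer cells of a type and less RNA per cell cannot be told apart.

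In all, 1370 genes were called higher and 428 lower in hda6-6 than in hda9-1, which is 8.06% of the genes tested, 6.14% higher and 1.92% lower. The higher side made up 76.2% of the calls, and under quantile normalization, which forces all libraries to the same distribution, it made up 63.2%, with 1120 genes higher and 652 lower. The median log2 difference over all genes was -0.04. The higher genes had a median log2 difference of 1.60, and 231 of them were listed at 0 in every hda9-1 library. The lower genes had a median of -1.34, and 9 of them were listed at 0 in every hda6-6 library. In 38.9% of the tested genes the 3 libraries of each genotype did not overlap, with hda6-6 above in 18.3% and below in 20.6%. A log2 difference of 5 or more was reached by 70 higher genes and by 0 lower genes. The filter fixed the direction of some genes, which passed it through 1 genotype alone. Of 21120 tested protein-coding genes, 206 were above 0.1 RPKM in no hda9-1 library and 40 in no hda6-6 library. In RefSeq's class of pseudogenes, described below, these were 193 and 3 of 341. At the edge of the call, AT5G51910 was just inside with 1.00013 and DVL21 just outside with 0.999921 on the log2 scale.

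**Figure D1:**
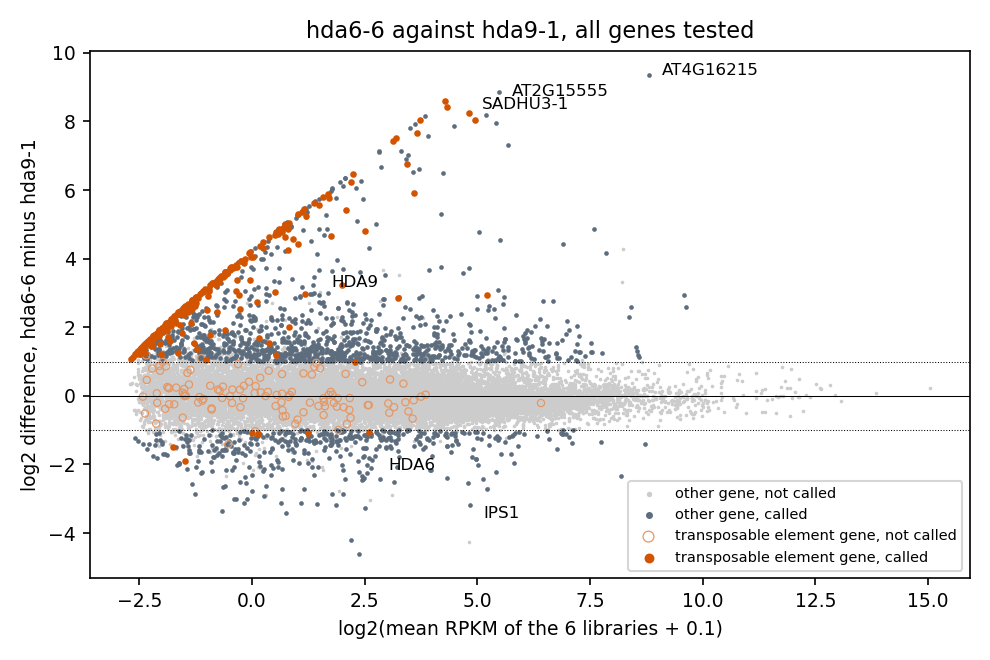
Each point is a gene tested, with log2 of the mean RPKM of the 6 libraries plus 0.1 on the x axis and the log2 difference, hda6-6 minus hda9-1, on the y axis. Filled points were called and orange points are transposable element genes; dotted lines mark 2-fold. The diagonal upper edge is formed by genes at or near 0 in hda9-1, and 70 genes lie at 5 or above while 0 lie at -5 or below.

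The strongest differences came from loci that hda9-1 hardly transcribed. AT4G16215 (chromosome 4), a gene of unknown function, had 993, 773 and 926 RPKM in hda6-6, against 5.56, 0.846 and 0.364 RPKM in hda9-1. The hda6-6 libraries stood far above all others for this gene, since Col had at most 0.621 RPKM. AT2G15555, an RNA gene without a protein product on chromosome 2, had 87.3, 89.5 and 91.1 RPKM in hda6-6, against 0.365, 0.0489 and 0 RPKM in hda9-1. AT2G01422, another RNA gene of chromosome 2, had 77.9, 84.9 and 91.6 RPKM in hda6-6, against 1.34, 0 and 0.170 RPKM in hda9-1. AT3G28899 had 66.7 to 85.1 RPKM in hda6-6 and at most 0.296 RPKM in hda9-1, but it overlaps AT3G28900 and the reads of both cannot be told apart without strand. AT3G29633 had 35.4 to 52.6 RPKM in hda6-6 and at most 0.583 RPKM in hda9-1. AT4G07965 had 28.1 to 29.4 RPKM and AT3G43722 had 21.0 to 30.04 RPKM in hda6-6, and both were listed at 0 in every hda9-1 library. Both thus passed the filter through hda6-6 alone and had to be higher. None of these named loci has a function that the annotation states.

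Transposable element genes made up a large share of these loci. RefSeq's class of pseudogenes, which in Arabidopsis holds mostly transposable element genes, had 3911 members in the files, and 341 of them were tested. Loci of this class above 0.1 RPKM numbered 416, 390 and 383 in the hda6-6 libraries, against 146, 148 and 143 in the hda9-1 libraries. Above 0.1 RPKM in all 3 libraries were 326 loci in hda6-6, 118 in hda9-1, 117 in hda5-1 and 118 in Col, so that hda9-1 detected about as many of them as wild type. The summed RPKM of the class was 1079, 1037 and 1004 in hda6-6, against 348, 429 and 444 in hda9-1. Of the 341 tested, 224 were called higher (65.7%, beside 6.14% of all genes tested) and 6 lower. As many as 193 of the 341 were above 0.1 RPKM in no hda9-1 library, so they passed the filter through hda6-6 alone and had to differ, and their count is a description.

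The most abundant of these transcripts came from a few loci. AT2G23490 had 67.6, 51.5 and 65.2 RPKM in hda6-6, against 0.701, 0 and 0.0565 RPKM in hda9-1. AT2G04320 had 45.8, 38.6 and 35.9 RPKM in hda6-6, against 0, 0 and 0.0631 RPKM in hda9-1. AT5G35792 had 35.7 to 41.6 RPKM and AT2G04000 had 22.8 to 29.5 RPKM in hda6-6, and both were listed at 0 in every hda9-1 library. Each of these loci was at a similar level in the 3 hda6-6 libraries and near or at 0 in hda9-1.

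SADHU elements, short retroposons that are silenced to different degrees in Arabidopsis, did not move as a family. Of 15 members in the files 13 were tested, 7 were called higher (53.8%, beside 6.14% of all genes tested) and 0 lower. SADHU3-1 (AT3G44042) had 53.6, 55.6 and 58.8 RPKM in hda6-6, against 0.342, 0 and 0.0459 RPKM in hda9-1. SADHU3-2 (AT3G42658) had 61.7, 68.8 and 66.6 RPKM in hda6-6, against 8.50, 8.80 and 7.86 RPKM in hda9-1, and here hda9-1 itself stood above Col, which had 1.801 to 2.22 RPKM. SADHU8-1 had 16.7 to 25.8 RPKM in hda6-6 and at most 0.252 RPKM in hda9-1, and SADHU5-2 had 7.95 to 10.1 RPKM in hda6-6 and at most 0.0671 RPKM in hda9-1. SADHU5-2 thus passed the filter through hda6-6 alone and had to be higher. SADHU1-1, which every library transcribed, had 71.9, 82.4 and 80.5 RPKM in hda6-6, against 69.9, 103 and 103 RPKM in hda9-1, and it was not called, with a log2 difference of -0.21 ± 0.16 (SE). The call of SADHU1-3 at 1.00 was lost without hda6-6 replicate 1 (0.98), hda6-6 replicate 2 (0.96), hda9-1 replicate 1 (0.97) or hda9-1 replicate 3 (0.94).

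Genes known to be imprinted or held silent by DNA methylation were listed next. Of 13 such genes 7 were tested, and 4 were called higher (57.1%, beside 6.14% of all genes tested) and 1 lower. SDC, an F-box gene silenced through repeats in its promoter, had 7.45, 5.61 and 4.9997 RPKM in hda6-6, against 0.120, 0.0748 and 0.128 RPKM in hda9-1. Its log2 difference was 4.87 ± 0.23 (SE), with an adjusted p of 4.7e-06 in limma. QQS, an orphan gene that affects starch content, had 12.2, 11.5 and 9.81 RPKM in hda6-6, against 1.81, 0.179 and 0.231 RPKM in hda9-1. PHE1, a MADS-box gene expressed from the paternal copy in endosperm, had 10.4, 9.68 and 8.33 RPKM in hda6-6, against 1.73, 1.87 and 1.55 RPKM in hda9-1. Col was lower for PHE1, with 0.257 to 0.602 RPKM, while hda5-1 had 1.93 to 2.32 RPKM. AGL36 had 0.229 to 0.476 RPKM in hda6-6 and was listed at 0 in all hda9-1 libraries, so it passed the filter through hda6-6 alone and had to be higher, and its call was lost with 1 in place of 0.1 added to RPKM (0.41). As AGL36 is also the middle member by fitted difference, no median is given for this list. FWA, a repeat-silenced homeodomain gene, was not tested, with at most 0.0950 RPKM in hda6-6 and 0 in hda9-1. The lower member was HDG8, whose call was lost without hda6-6 replicate 2, hda6-6 replicate 3 or hda9-1 replicate 2, with values of -1.37 to -1.25.

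Genes of the silencing machinery were listed as well. Among 16 tested genes of DNA methylation and silencing, 0 were called higher and 1 lower, with a median log2 difference of -0.02. The called share of 6.25% was close to the 8.06% of all genes tested. The lower gene was IBM1, a histone H3K9 demethylase that protects genes from DNA methylation, with 1.94, 1.74 and 1.497 RPKM in hda6-6, against 3.03, 4.09 and 4.52 RPKM in hda9-1. Its log2 difference of -1.11 was -0.99, and no longer past the fold, without hda9-1 replicate 3. Among 11 partner genes of HDA6 and HDA9, 0 were higher and 1 lower, or 9.09%, with a median of -0.20. That gene was PWR, with 6.79, 7.63 and 6.17 RPKM in hda6-6, against 9.01, 22.9 and 25.5 RPKM in hda9-1. The hda9-1 libraries were spread widely, and the adjusted p of PWR in limma was 0.068 to 0.10 without any of the 3 hda6-6 libraries or hda9-1 replicate 2 or 3, with log2 differences of -1.41 to -1.06.

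The placement of the higher genes along the chromosomes was described for genes other than transposable elements. The annotated loci were laid out in bins of 1 Mb, and 17 bins had transposable element genes for at least 50% of their loci. In these 17 bins, 94 of 504 tested genes of other classes were higher, or 18.7%, and 5 were lower. In the remaining 104 bins, 1045 of 21181 such genes were higher, or 4.93%, and 414 were lower. Of these tested genes, 64 of the 504 and 172 of the 21181 were above 0.1 RPKM in no hda9-1 library. They passed the filter through hda6-6 alone, which fixed their direction but not whether they were called. Without them, which is a count added after the values were seen, 30 of 440 genes were higher in the 17 bins, or 6.82%, and 907 of 21009 in the remaining bins, or 4.32%. Of the 94 higher genes in the 17 bins, 64 were thus above 0.1 RPKM in no hda9-1 library. Counted from the bin richest in transposable elements on each chromosome, the higher share was 21.3% of 47 tested genes in that bin, 11.8% at 1 Mb, 11.3% at 2 Mb and 6.33% at 3 Mb. Without the genes that passed through hda6-6 alone it was 7.5% of 40 genes, 4.92%, 5.97% and 5.41%, and further out it lay between 3.44% and 5.23%. The lower share stayed between 0.819% and 2.41% at every distance. Neighbouring genes are not independent of each other, so these shares are given as a description and were not tested.

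**Figure D2:**
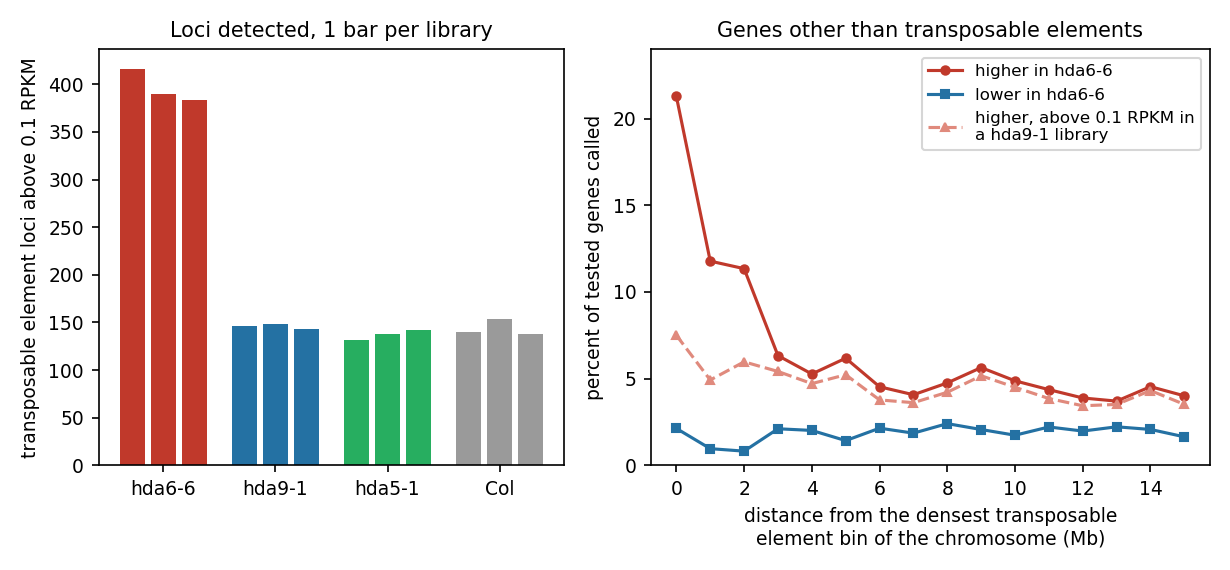
Left, the number of transposable element loci above 0.1 RPKM in each library, 1 bar per library by genotype. Right, the percent of tested genes of other classes called higher (circles), higher without genes above 0.1 RPKM in no hda9-1 library (triangles, dashed) and lower (squares) in hda6-6 than in hda9-1, by distance in Mb from the bin richest in transposable elements on each chromosome. The hda6-6 bars reach 383 to 416 loci and the hda9-1 bars 143 to 148, and the circles drop between 21.3% in the first bin and 6.33% at 3 Mb, while the triangles lie at 7.5% and 5.41% there and the squares at or below 2.41%.

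Some adjacent genes were called together, which is reported here after the values were seen and was not tested. Runs of neighbours called higher numbered 103 and held 227 genes, or 16.6% of the genes called higher, and 80 of the 227 were above 0.1 RPKM in no hda9-1 library. Runs called lower numbered 19 and held 38 genes, or 8.88% of the genes called lower, none longer than 2. The longest run, of 6 genes, went from AT4G15660 to AT4G15710 on chromosome 4 and held thioredoxin superfamily genes and a cystatin-like gene. AT4G15660 had 6.18, 7.77 and 5.87 RPKM in hda6-6, against 0.821, 2.65 and 1.39 RPKM in hda9-1, and AT4G15700 had 10.2, 14.8 and 8.57 RPKM in hda6-6, against 3.199, 5.35 and 4.51 RPKM in hda9-1. Without hda6-6 replicate 1, the calls of AT4G15670 (3.13), AT4G15680 (1.15) and AT4G15690 (1.301) were lost, and without hda6-6 replicate 2 those of AT4G15680 (1.16) and AT4G15690 (1.16). A run of 5 from AT2G16660 to AT2G16690 on chromosome 2 included AT2G16670, with 3.63, 2.83 and 3.38 RPKM in hda6-6, against 0.0375, 0 and 0.0101 RPKM in hda9-1. A run of 4 from AT3G29734 to AT3G29739 had 0.131 to 0.812 RPKM in hda6-6 and at most 0.0197 RPKM in hda9-1, so its genes passed the filter through hda6-6 alone.

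The clearest group on the lower side was the response to phosphate shortage. When phosphate is scarce, the factor PHR1 switches on phosphate transporters, secreted phosphatases, enzymes that swap phospholipids for galactolipids and sulfolipids, and the microRNAs miR399 and miR827. miR399 lowers PHO2, which otherwise promotes loss of phosphate transporters, and the noncoding RNAs IPS1 and At4 hold miR399 back by pairing with it without being cut. A list of 41 such genes was put together after the values were seen, so its members' calls are a description. Of the 36 tested, 26 were called lower in hda6-6 (72.2%, beside 1.92% of all genes tested) and 0 higher. The median log2 difference was -1.73.

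The mature microRNAs and the pairing sites of IPS1 and At4 are shown because precursors and decoys of this circuit were both lower. The sequences were read from the RefSeq TAIR10.1 annotation and genome. In the microRNAs, capitals mark the seed, bases 2 to 8. In the decoys, capitals mark the bases complementary to miR399d, which number 17 of 21, and 3 unpaired bases lie between microRNA positions 10 and 11.
miR399d: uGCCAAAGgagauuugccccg
miR399c-3p: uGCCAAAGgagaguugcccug
miR827: uUAGAUGAccaucaacaaacu
IPS1: ttGGGCAAcTtctaTCCTTTGGCA
At4: ttGGGCAAcTtcgaTCCTTTGGCA
miR399d lies at chr2:14442988-14443008 and miR827 at chr3:22122811-22122831, both on the minus strand, and miR399c-3p at chr5:24962568-24962588 on the plus strand. The decoy sites lie at chr3:3051224-3051247 in IPS1 and chr5:895149-895172 in At4, both on the plus strand. miR399d and miR399c-3p share the seed GCCAAAG.

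IPS1 (AT3G09922) had 6.97, 3.26 and 7.33 RPKM in hda6-6, against 59.0, 46.9 and 48.7 RPKM in hda9-1. All hda6-6 libraries were below all hda9-1 libraries, and the log2 difference was -3.19 ± 0.28 (SE), with an adjusted p of 0.00018 in limma. At4 (AT5G03545) had 111, 54.4 and 140 RPKM in hda6-6, against 488, 563 and 395 RPKM in hda9-1. The precursor MIR399D had 1.26, 1.40 and 2.34 RPKM in hda6-6, against 6.71, 13.6 and 6.76 RPKM in hda9-1. MIR827 was listed at 0 in all hda6-6 libraries and had 0.538, 0.505 and 0.867 RPKM in hda9-1. MIR827 passed the filter through hda9-1 alone, and its call was lost with 1 in place of 0.1 added to RPKM (-0.70). With all 14 libraries in the fit, which share 1 estimate of the spread, MIR827 (adjusted p of 0.054 in limma) and MIR399D (adjusted p of 0.22 in limma) were no longer called. Reads here come from polyadenylated precursors, and mature microRNAs were not measured. MIR399C was not called, with a log2 difference of -1.51 ± 0.87 (SE), and MIR399A, MIR399B, MIR399E and MIR399F were not tested. The targets were level: PHO2 differed by -0.07 ± 0.19 (SE), and NLA, a ubiquitin ligase targeted by miR827, by 0.26 ± 0.14 (SE) on the log2 scale.

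Transporters, phosphatases and lipid enzymes of the list went the same way. The transporter PHT1;2 had 0.230, 0.125 and 0.302 RPKM in hda6-6, against 2.05, 3.801 and 2.21 RPKM in hda9-1. Its sequence is nearly identical to PHT1;1, so reads could be split between them, and PHT1;1 itself was not called, at -0.81 ± 0.20 (SE). PHT1;4 had 13.2, 10.6 and 15.9 RPKM in hda6-6, against 44.2, 38.3 and 53.3 RPKM in hda9-1. The call of PHT1;8 was lost without hda6-6 replicate 1 (-2.15) or hda9-1 replicate 3 (-1.77). That of PHT1;9 was lost without hda6-6 replicate 1 (-1.35) or 2 (-0.94) or hda9-1 replicate 3 (-1.12). The pyrophosphatase gene PS2 had 5.70, 5.99 and 13.2 RPKM in hda6-6, against 51.4, 32.5 and 56.3 RPKM in hda9-1. The phosphatase PAP17 had 12.7, 9.15 and 17.2 RPKM in hda6-6, against 54.7, 43.8 and 55.6 RPKM in hda9-1. The sulfolipid enzyme SQD1 had 23.1, 19.8 and 21.5 RPKM in hda6-6, against 52.8, 79.7 and 80.2 RPKM in hda9-1, and the galactolipid synthases MGD2 and MGD3 differed by -2.02 ± 0.16 and -2.22 ± 0.28 (SE) on the log2 scale. SPX1, a nuclear phosphate sensor that restrains PHR1, had 23.98, 17.0 and 29.3 RPKM in hda6-6, against 110, 73.4 and 85.1 RPKM in hda9-1. PHR1 was level, with 14.9 to 18.8 RPKM in hda6-6 and 17.0 to 19.8 RPKM in hda9-1.

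Wild type did not sit at a fixed level for these genes. IPS1 ranged from 16.6 to 75.3 RPKM over the Col libraries and from 2.11 to 24.8 RPKM over the hda5-1 libraries, and PS2 from 20.3 to 68.7 RPKM in Col and from 2.59 to 23.7 RPKM in hda5-1. The hda9-1 values thus fell inside the range of Col for both genes, and the hda6-6 values inside that of hda5-1. The part of this spread in the difference was not tested. The list kept 24 to 27 genes called lower when any library was left out, and 21 with 1 in place of 0.1 added to RPKM.

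**Figure D3:**
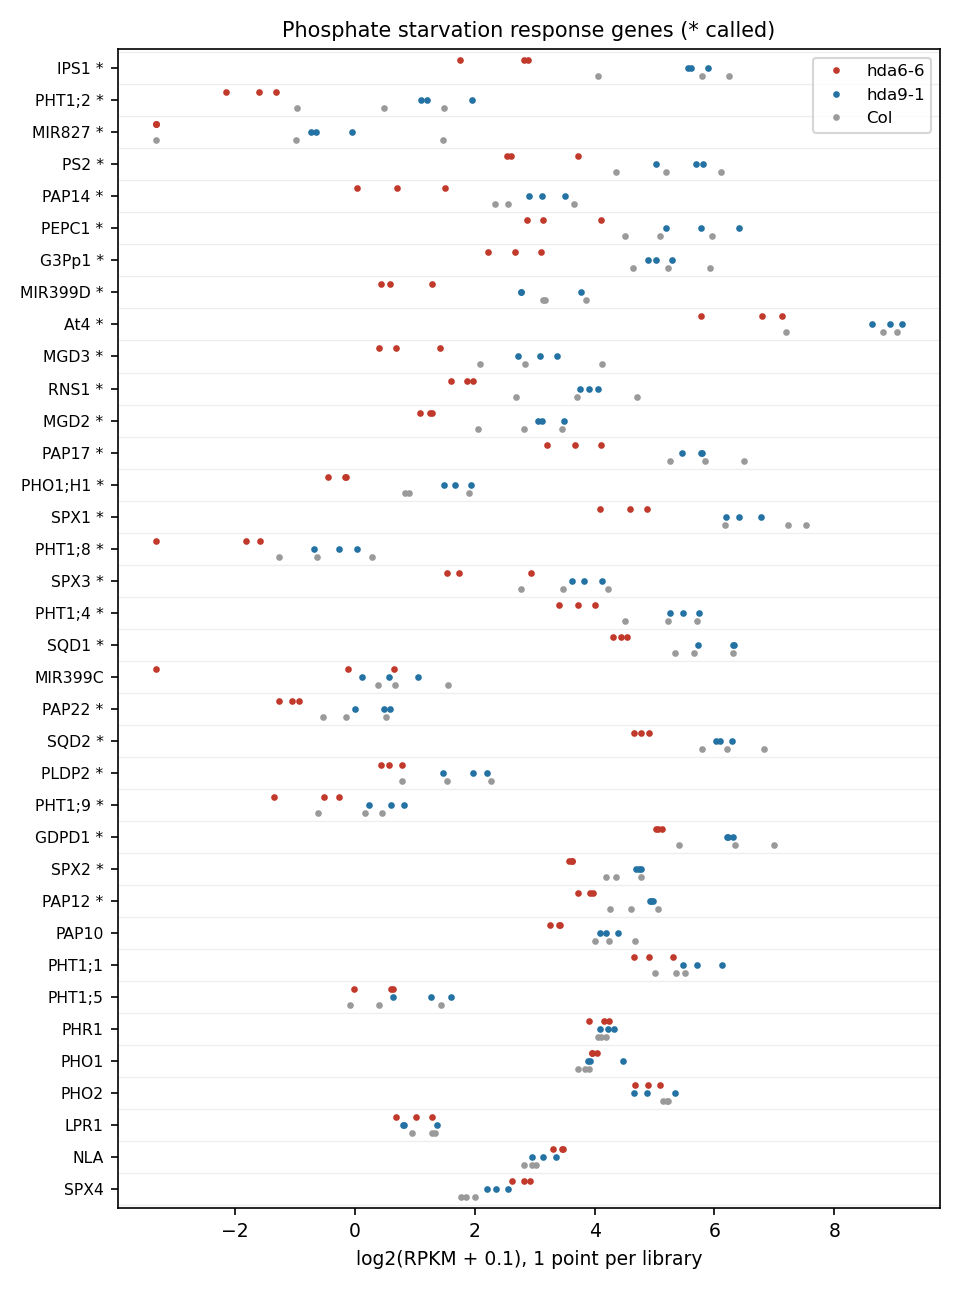
Level of each tested gene of the phosphate starvation list as log2(RPKM + 0.1), 1 point per library, with hda6-6 in red, hda9-1 in blue and Col in grey; an asterisk marks the 26 called genes. The red points lie left of the blue points for IPS1 down to PAP12, except for overlap at MIR399C, while PHR1, PHO1, PHO2 and LPR1 overlap.

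The element that PHR1 binds, P1BS, is written GNATATNC and reads the same on both strands. It was searched in the 500 bases before each annotated gene start in the RefSeq genome, TAIR10.1. It was present in 2366 of 22026 tested genes, or 10.7%, in 10.4% of the genes called higher and in 95 of 425 called lower, or 22.4%. In the phosphate list it was found in 13 of the 26 genes called lower and in 4 of the 10 not called, and outside the list in 82 genes called lower, or 20.6% of those. Sites of 4 genes called lower are shown, with capitals marking a match in each. The MIR827 window held 3 matches, and another of them opens its printed stretch in small letters.
At4: tttggtaattgGCATATTCcttttagaaga
PHT1;2: aatataaatatGGATATACccttaagattc
MIR399D: gatgtgccagaGAATATGCtttctatacgc
MIR827: gaatatccataGAATATTCttgtctggatt
They lie at chr5:894545-894574 and chr5:17415645-17415674 on the plus strand for At4 and PHT1;2, and at chr2:14443228-14443257 and chr3:22122991-22123020 on the minus strand for MIR399D and MIR827. A match describes letters in the window and not binding.

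A list of 14 sulfur shortage genes was likewise chosen after the values were seen. Of these 14, 6 were called lower (42.9%, beside 1.92% of all genes tested), 0 higher and 8 not called. The median log2 difference was -0.83. The lower count was 3 to 6 when a library was left out, and 2 with 1 in place of 0.1 added to RPKM. LSU1, a small protein of the low-sulfur response, had 2.52, 0.901 and 2.99 RPKM in hda6-6, against 10.6, 8.03 and 9.61 RPKM in hda9-1, while Col had 18.8 to 73.7 RPKM. LSU2 had 3.48, 2.01 and 2.52 RPKM in hda6-6, against 10.9, 7.46 and 11.3 RPKM in hda9-1. BGLU28, a beta-glucosidase thought to release sulfur from glucosinolates, had 0.108, 0.239 and 0.240 RPKM in hda6-6, against 1.18, 0.915 and 1.25 RPKM in hda9-1, and its call was lost with 1 added to RPKM (-0.82) or with all 14 libraries in the fit (adjusted p of 0.057 in limma). LSU3 lost its call without hda6-6 replicate 1 (-1.31) or 2 (-0.96). LSU4 lost it without any library but hda9-1 replicate 1, with values of -1.84 to -1.21, and SDI1 without hda6-6 replicate 1 or 2 or hda9-1 replicate 1 or 3, with values of -1.11 to -0.84. The sulfate reductase genes APR1, APR2 and APR3 were not called, at -0.77, -0.85 and -0.80 on the log2 scale.

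Other genes among the largest falls belonged to no list. GolS4, a galactinol synthase, had 1.02, 0.589 and 1.15 RPKM in hda6-6, against 7.28, 7.73 and 6.14 RPKM in hda9-1, with a log2 difference of -2.85 ± 0.24 (SE). BAM5, a beta-amylase, had 0.126, 0.487 and 0.419 RPKM in hda6-6, against 2.01, 3.92 and 5.15 RPKM in hda9-1. AT5G20790, a gene of unknown function, had 9.09, 7.13 and 13.2 RPKM in hda6-6, against 72.6, 50.1 and 70.2 RPKM in hda9-1. AT1G53610 had 0.590, 0.163 and 1.804 RPKM in hda6-6, against 5.89, 5.89 and 6.96 RPKM in hda9-1. AT1G23110 and AT5G17340 were lower at -2.73 ± 0.27 and -4.22 ± 0.77 (SE), and both overlap other genes. The lipid-transfer protein gene AT5G46900 was lower at -3.14 ± 0.57 (SE), but not called with all 14 libraries in the fit (adjusted p of 0.11 in limma). Its relative AT5G46890 lost its call at -2.85 without hda6-6 replicate 1 (-2.70) or 3 (-2.63). NAC027, at -4.61 ± 1.25 (SE), had 0, 0 and 3.79 RPKM in hda6-6, against 11.4, 10.8 and 4.42 RPKM in hda9-1, overlaps AT1G64100, and lost its call without any library but hda6-6 replicate 3, with values of -5.04 to -3.73. AT1G26390 lost its call without hda6-6 replicate 1 or 2 or hda9-1 replicate 2 or 3, with values of -3.38 to -2.59 against -3.27 with all libraries.

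Flowering genes differed on both sides of the pathway. FLC and its relatives FLM and MAF2 to MAF5 are MADS-box repressors, and FT, SOC1, LFY and AGL8 (FRUITFULL) promote the change to flowering. Of the 6 FLC clade genes, 2 were called higher in hda6-6 (33.3%, beside 6.14% of all genes tested) and 0 lower, with a median of 0.36. MAF4 had 4.72, 5.40 and 4.07 RPKM in hda6-6, against 1.17, 0.381 and 0.531 RPKM in hda9-1, and its log2 difference was 2.72 ± 0.34 (SE), with an adjusted p of 0.0011 in limma. MAF5, its neighbour on chromosome 5, had 4.81, 5.11 and 4.31 RPKM in hda6-6, against 1.98, 1.91 and 1.64 RPKM in hda9-1. For MAF5, Col with 3.64 to 3.99 RPKM stood nearer to hda6-6, and for MAF4, Col with 1.26 to 1.58 RPKM stood nearer to hda9-1. FLC itself had 2.76, 3.41 and 2.28 RPKM in hda6-6, against 2.42, 2.17 and 1.82 RPKM in hda9-1. The groups overlapped, and FLC was not called, at 0.37 ± 0.20 (SE) with an adjusted p of 0.23 in limma.

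Among 14 tested floral activators, 4 were called lower (28.6%, beside 1.92% of all genes tested) and 0 higher, with a median of -0.78. FT, the mobile flowering signal, had 0.590, 0.163 and 0.820 RPKM in hda6-6, against 2.75, 1.84 and 2.16 RPKM in hda9-1. Its log2 difference was -2.08 ± 0.43 (SE), with an adjusted p of 0.011 in limma. For FT, Col had 0.695 to 1.34 RPKM and overlapped hda6-6, and all hda9-1 libraries lay above every other library. SOC1, which integrates flowering signals at the shoot tip, had 23.2, 23.4 and 23.7 RPKM in hda6-6, against 47.0, 58.6 and 53.7 RPKM in hda9-1. Col had 51.2 to 60.3 RPKM for SOC1 and overlapped hda9-1, while hda5-1 had 21.6 to 29.8 RPKM and overlapped hda6-6. LFY, a floral identity factor, had 0.133, 0.221 and 0.296 RPKM in hda6-6, against 0.620, 0.748 and 1.18 RPKM in hda9-1. AGL8 had 1.45, 1.24 and 1.28 RPKM in hda6-6, against 5.01, 3.21 and 2.88 RPKM in hda9-1, while Col had 2.58 to 3.34 RPKM. SEP3, a MADS-box gene of floral organs, had 1.57, 1.61 and 1.83 RPKM in hda6-6, against 5.34, 6.10 and 6.34 RPKM in hda9-1, while Col had 3.90 to 5.06 RPKM. With 1 in place of 0.1 added to RPKM, 2 of the 4 activators remained past the threshold. None of the 8 other floral repressors was called, the most abundant being TEM2, with 95.8, 119 and 108 RPKM in hda6-6, against 49.6, 65.0 and 54.1 RPKM in hda9-1 and a log2 difference of 0.94 ± 0.13 (SE).

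**Figure D4:**
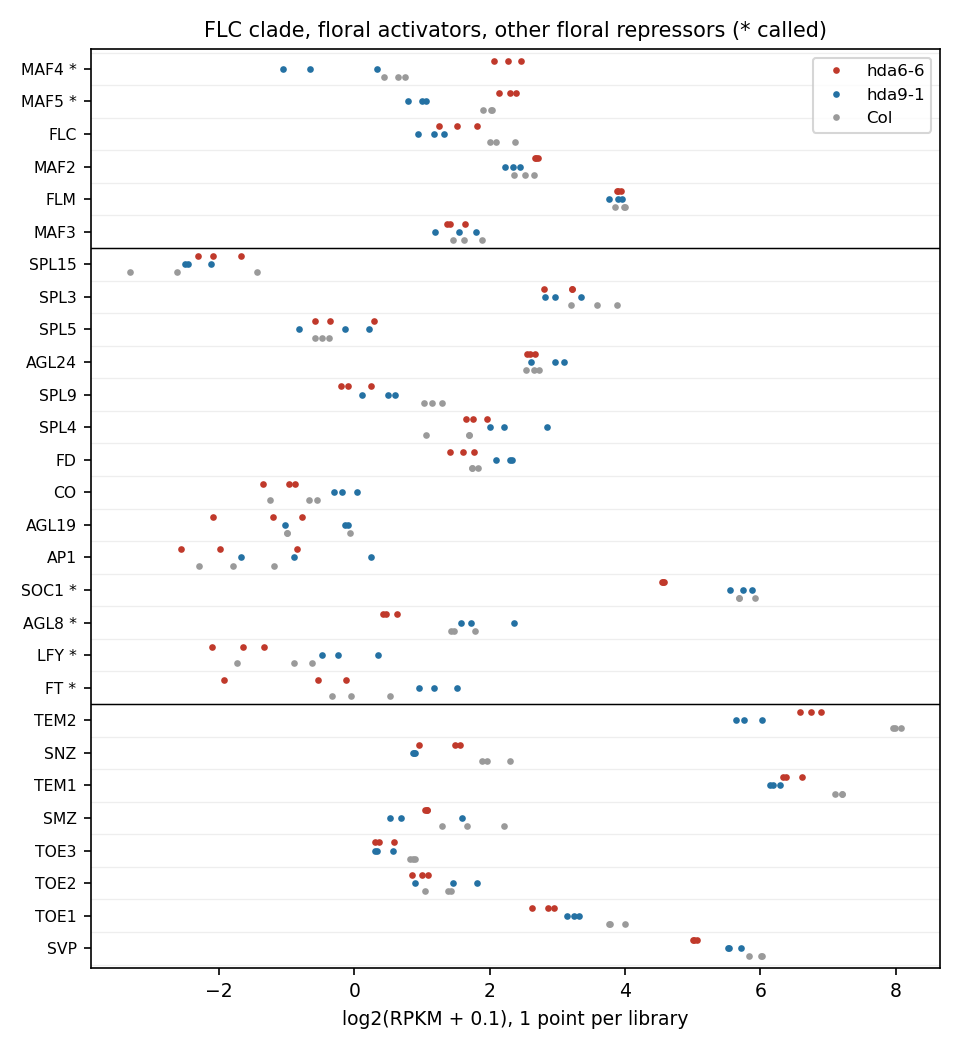
Level of the tested FLC clade genes (top), floral activators (middle) and other floral repressors (bottom) as log2(RPKM + 0.1), 1 point per library, with hda6-6 in red, hda9-1 in blue and Col in grey; an asterisk marks called genes. Red points lie right of blue for MAF4 and MAF5 and left of blue for FT, LFY, AGL8 and SOC1, while those of FLC overlap.

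Regulators of the shoot meristem were examined after STM had been seen among the lower genes. Of the 8 tested, 2 were called lower (25%, beside 1.92% of all genes tested) and 0 higher, with a median of -0.30. STM, which keeps meristem cells undifferentiated, had 1.91, 2.15 and 2.13 RPKM in hda6-6, against 6.53, 6.24 and 6.09 RPKM in hda9-1, and Col lay between at 2.87 to 3.73 RPKM. KNAT1, a related homeobox gene, differed by -1.05, and by -0.88, no longer past the fold, without hda9-1 replicate 3. WUS and CLV3 were not tested, being below 0.1 RPKM in every one of the 6 libraries.

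Clock genes were examined by phase. Of 15 morning-phased genes, 0 were higher and 1 lower, with a median of -0.16. The called share of 6.67% was close to the 8.06% of all genes tested. The lower gene was CDF1, a repressor of CONSTANS, with 1.38, 1.04 and 0.823 RPKM in hda6-6, against 2.55, 2.48 and 1.91 RPKM in hda9-1. Its difference of -1.05 was lost without hda6-6 replicate 2 (-1.04) or 3 (-0.88) or hda9-1 replicate 1 (-0.97) or 2 (-0.99). Of 12 evening-phased genes, 0 were called, with a median of -0.33 and 10 of the 12 below 0, and CHE, the most abundant, differed by 0.67 ± 0.11 (SE).

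A group of genes that respond within minutes to touch, wounding and other stress stood higher in hda6-6. Of 22 such genes all were tested, and 10 were called higher (45.5%, beside 6.14% of all genes tested) and 1 lower. The median log2 difference was 0.74. TCH4, a cell wall enzyme induced by touch, had 1274, 1916 and 907 RPKM in hda6-6, against 186, 190 and 143 RPKM in hda9-1. Its log2 difference was 2.93 ± 0.25 (SE), with an adjusted p of 0.00016 in limma. TCH3, a calmodulin-like protein, had 1414, 1428 and 1207 RPKM in hda6-6, against 268, 219 and 187 RPKM in hda9-1, though it overlaps AT2G41105. CML38, another calmodulin-like gene, had 58.5, 98.1 and 50.8 RPKM in hda6-6, against 21.5, 9.27 and 12.4 RPKM in hda9-1. The defence regulator WRKY40 had 26.8, 43.3 and 16.6 RPKM in hda6-6, against 9.24, 3.95 and 5.52 RPKM in hda9-1, and the related WRKY18 had 44.1, 60.6 and 33.2 RPKM in hda6-6, against 17.3, 7.80 and 8.69 RPKM in hda9-1. For WRKY40 and WRKY18 no hda6-6 library overlapped hda9-1, but the hda6-6 libraries were themselves spread, with replicate 2 the highest in both. ERF6 rose at 2.03 ± 0.19 (SE), TCH2 at 1.59 ± 0.14 and ERF104 at 1.43 ± 0.28. WRKY33 lost its call without hda6-6 replicate 1 (1.86), and ZAT10 without hda6-6 replicate 2 (1.52) or 3 (1.297).

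Not all members were higher. CBF3, a regulator of cold genes, was the lower member, with 0, 0.0512 and 0.0515 RPKM in hda6-6, against 0.431, 0.347 and 0.722 RPKM in hda9-1. CBF3 passed the filter through hda9-1 alone, and its call was lost with 1 in place of 0.1 added to RPKM (-0.53). Both mutants were far below Col for CBF3, which had 4.43 to 10.8 RPKM there. Col stood above both mutants for ZAT10, with 157 to 203 RPKM, and for ERF104, with 166 to 249 RPKM, but below both for TCH3, with 75.8 to 123 RPKM. The element CGCGTT, known from promoters of rapid stress genes, searched on both strands of the same 500 bases and held by 4.90% of tested genes and 7.48% of the genes called higher, was found in 2 of the 22 genes of this list.

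XTH genes encode enzymes that cut and rejoin xyloglucan in the cell wall, and TCH4 is a member of this family. Of 30 tested, 7 were called higher (23.3%, beside 6.14% of all genes tested) and 0 lower, with a median of 0.22. XTR6 had 221, 323 and 145 RPKM in hda6-6, against 12.1, 7.52 and 11.4 RPKM in hda9-1, and its mean RPKM was 22.2 times higher, with a log2 difference of 4.41 ± 0.28 (SE). XTH18 had 153, 174 and 130 RPKM in hda6-6, against 26.3, 13.6 and 30.1 RPKM in hda9-1. XTH33 had 7.001, 8.01 and 7.22 RPKM in hda6-6, against 1.26, 1.03 and 1.39 RPKM in hda9-1, and XTH15 had 84.7, 84.0 and 103 RPKM in hda6-6, against 29.998, 48.8 and 35.9 RPKM in hda9-1. The call of XTH11 was lost without hda6-6 replicate 1 (1.07), and that of XTH16 without hda9-1 replicate 3 (0.98). Expansins, which loosen the wall, were split, with 3 of 26 higher (11.5%) and 2 lower (7.69%) and a median of -0.21. The 3 higher were the expansin-like genes, with EXLA1 at 207, 244 and 178 RPKM in hda6-6, against 43.1, 51.5 and 42.5 RPKM in hda9-1, EXLA2 at 2.51 ± 0.14 (SE) and EXLA3 at 2.22 ± 0.18 (SE) on the log2 scale. The 2 lower were alpha-expansins. EXPA8 had 3.92, 5.81 and 3.77 RPKM in hda6-6, against 10.1, 11.4 and 11.1 RPKM in hda9-1, both far below the 49.7 to 70.6 RPKM of Col. EXPA15 differed by -1.15, and by -0.94, no longer past the fold, without hda9-1 replicate 2.

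**Figure D5:**
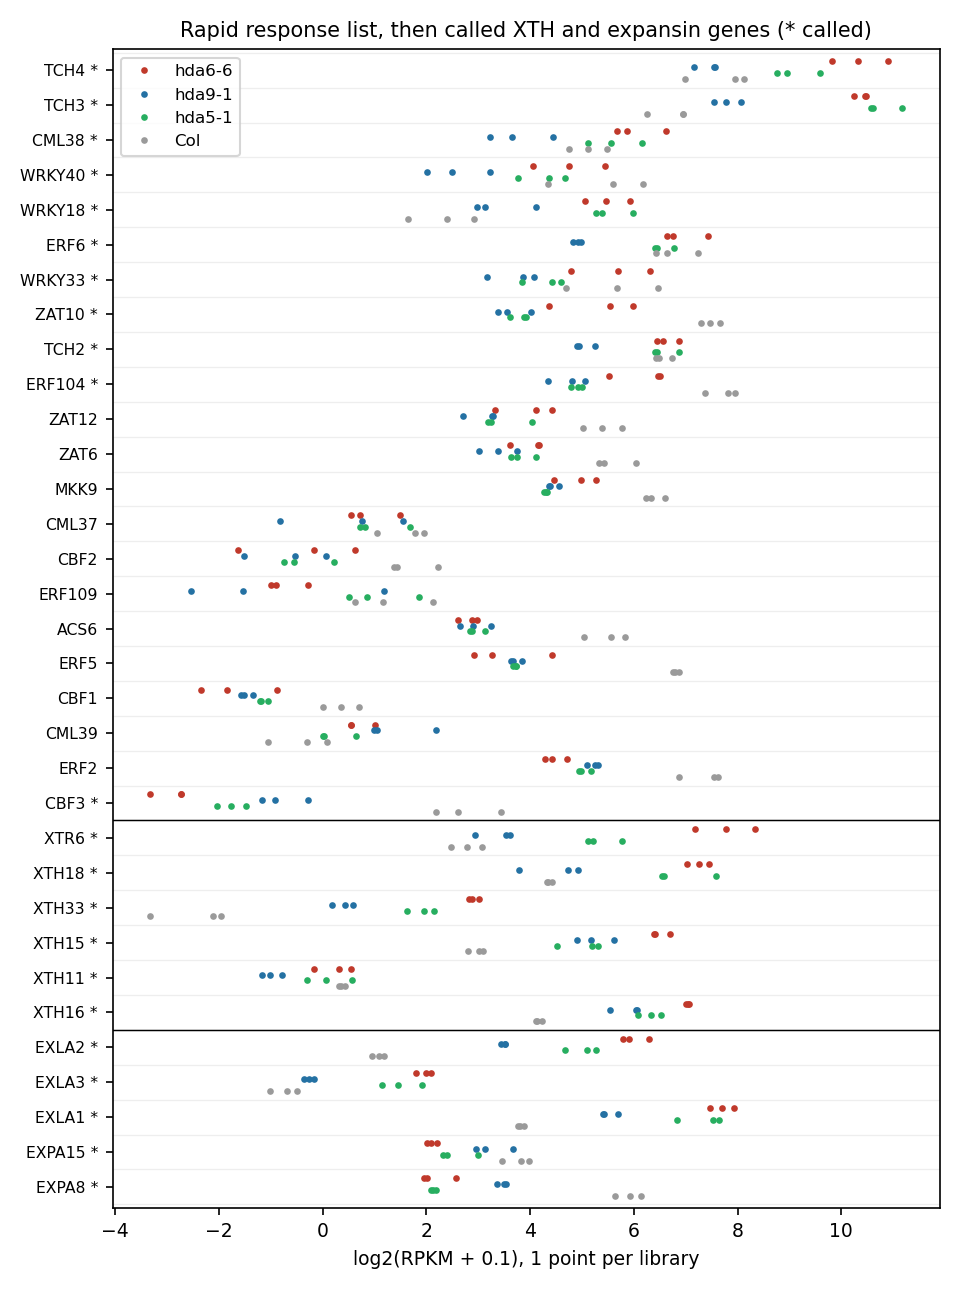
Level of the 22 rapid response genes (top), the called XTH genes other than TCH4 (middle) and the called expansin genes (bottom) as log2(RPKM + 0.1), 1 point per library, with hda6-6 in red, hda9-1 in blue, hda5-1 in green and Col in grey; an asterisk marks genes called between hda6-6 and hda9-1. For TCH4 and XTR6 the red points lie right of the blue, hda5-1 lies between them, and Col is close to hda9-1.

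Immune receptor genes were raised in part. NLR receptors sense pathogen molecules inside the cell, and a list of 151 was taken from the annotation after the values were seen. Of 131 tested, 26 were called higher and 1 lower, with a median of 0.29. The shares were 19.8% higher and 0.763% lower, beside 6.14% and 1.92% of all genes tested. Among the tested members, 1 was above 0.1 RPKM in no hda9-1 library, so its direction was fixed by the filter. AT5G58120 had 8.22, 9.37 and 4.69 RPKM in hda6-6, against 1.099, 0.832 and 1.097 RPKM in hda9-1, with a log2 difference of 2.71 ± 0.26 (SE). AT1G17600, which overlaps the likewise higher AT1G17610, had 2.42, 2.53 and 1.39 RPKM in hda6-6, against 0.202, 0.0787 and 0.271 RPKM in hda9-1. ADR1, a helper receptor, had 12.3, 11.8 and 8.90 RPKM in hda6-6, against 4.09, 3.21 and 4.18 RPKM in hda9-1, and RPM1 had 10.8, 10.7 and 7.97 RPKM in hda6-6, against 3.81, 4.25 and 4.01 RPKM in hda9-1. RPP4 had 14.2, 13.8 and 8.65 RPKM in hda6-6, against 3.27, 4.61 and 5.37 RPKM in hda9-1. In these genes hda6-6 replicate 3 was the lowest of its group, and always above hda9-1. The lower gene was AT5G43740, at -1.32 ± 0.20 (SE). The higher count was 19 to 25 when a library was left out, and 12 with 1 in place of 0.1 added to RPKM. Because NLR genes lie in clusters of similar copies, reads could be split between them.

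CRK genes encode cysteine-rich receptor-like kinases. Of 31 tested, 8 were higher (25.8%, beside 6.14% of all genes tested) and 1 lower, with a median of 0.70. Among the tested members, 1 was above 0.1 RPKM in no hda9-1 library and 1 in no hda6-6 library. These passed the filter through 1 genotype alone, so their direction was fixed. The higher count was 6 to 10 when a library was left out, and 3 with 1 in place of 0.1 added to RPKM. CRK4 had 2.44, 2.82 and 2.37 RPKM in hda6-6, against 0.661, 0.233 and 0.444 RPKM in hda9-1, CRK14 differed by 1.70 ± 0.25 (SE) and CRK11 by 1.11 ± 0.13 (SE). The call of CRK41 at 1.13 was lost without hda9-1 replicate 1 (0.96), and that of the lower CRK7 without any library but hda9-1 replicate 1, with values of -1.93 to -1.12.

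Genes of hormone responses were called in both directions, 3 or 4 in each list, beside 6.14% higher and 1.92% lower of all genes tested. For abscisic acid, 2 of 22 were higher and 2 lower (9.09% each), with a median of -0.19. Among the 22, 1 was above 0.1 RPKM in no hda6-6 library, so it passed the filter through hda9-1 alone and had to be lower. The receptors PYL4 and PYL5 were the higher ones, with PYL5 at 113, 133 and 97.9 RPKM in hda6-6, against 30.1, 35.0 and 28.9 RPKM in hda9-1, and PYL4 at 184, 230 and 196 RPKM in hda6-6, against 67.7, 95.0 and 82.9 RPKM in hda9-1. The lower DREB2A, a drought factor near the 2-fold edge, lost its call without hda6-6 replicate 1 (-0.998) or 2 (-0.91) or hda9-1 replicate 2 (-0.90). CYP707A4, a gene of abscisic acid breakdown and the other lower one, lost its call without hda6-6 replicate 1 or 2 or hda9-1 replicate 2 or 3, with values of -1.37 to -1.26. With 1 in place of 0.1 added to RPKM, DREB2A (-0.89) and CYP707A4 (-0.29) were not called. For jasmonate, 2 of 23 were higher (8.70%) and 1 lower (4.35%), with a median of -0.05. The JAZ repressors were the higher ones, JAZ7 at 1.13, lost without hda6-6 replicate 1 (1.14) or 2 (0.95), and JAZ10 at 1.09, lost without hda9-1 replicate 2 (0.96). The storage protein gene VSP2 was the lower one, with 186, 184 and 267 RPKM in hda6-6, against 1023, 278 and 603 RPKM in hda9-1, and it lost its call without any library but hda9-1 replicate 2, with values of -1.59 to -0.97. For salicylic acid, 1 of 18 was higher (5.56%) and 2 lower (11.1%), with a median of 0.13. PR5, a defence protein, had 4.20, 3.56 and 3.05 RPKM in hda6-6, against 8.51, 8.67 and 14.0 RPKM in hda9-1. The lower WRKY62 lost its call without any hda6-6 library or hda9-1 replicate 3, with values of -1.60 to -1.38. CBP60G, a regulator of salicylic acid synthesis, differed by 1.07 and lost its call without hda6-6 replicate 2 (0.91) or hda9-1 replicate 2 (0.97).

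In the shade, warmth and auxin list, 1 of 15 was higher, XTH15 (6.67%), and 2 were lower (13.3%), with a median of 0.13. Of all genes tested, 6.14% were higher and 1.92% lower. The lower SAUR20, 1 of a cluster of similar genes, lost its call at -1.05 without hda6-6 replicate 1 (-0.87) or 3 (-1.01) or hda9-1 replicate 2 (-0.91). For leaf senescence, 0 of 15 were higher and 2 lower (13.3%), with a median of -0.34. Neither lower gene was firm, since SAG13, at -1.82, lost its call without hda6-6 replicate 1 or 2 or hda9-1 replicate 3, with values of -1.70 to -1.66, and SAG29, at -1.43, without hda6-6 replicate 1 or 2 or hda9-1 replicate 2 or 3, with values of -1.44 to -1.13. For heat shock, 1 of 8 was higher (12.5%) and 2 lower (25%), with a median of -0.80. HSP70 had 20.9, 23.0 and 25.6 RPKM in hda6-6, against 47.9, 139 and 62.7 RPKM in hda9-1, and its call at -1.69 was lost without hda6-6 replicate 1 (-1.62). HSP18.2 lost its call at 1.08 without hda9-1 replicate 1 (0.99).

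Of 14 anthocyanin genes, 0 were higher and 1 lower, PAP2 (AT1G66390), a MYB regulator of pigment, with 0, 0 and 0.0474 RPKM in hda6-6, against 0.738, 0.514 and 0.503 RPKM in hda9-1. PAP2 passed the filter through hda9-1 alone, and its call was lost with 1 in place of 0.1 added to RPKM (-0.64). None of the 11 nuclear photosynthesis genes or the 3 acetate pathway genes was called, and the most abundant of the acetate genes, PDC1, had overlapping groups at -1.02 ± 0.40 (SE). PDC1 was called lower without hda6-6 replicate 3 (-1.51, adjusted p of 0.015 in limma) and with the replicate number as a block (-1.02, adjusted p of 0.013 in limma). Of 94 tested mitochondrial genes, 1 was called higher and 0 lower. The higher one, ATMG01030, lost its call without any library but hda9-1 replicate 3, with values of 1.34 to 1.72.

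The position of wild type was taken from the Col libraries, which had no part in the fit. For 1132 of the 1370 higher genes, or 82.6%, the Col mean was nearer to hda9-1 than to hda6-6, and for 317 of the 428 lower genes, or 74.1%. All 3 hda6-6 libraries lay beyond all 11 others in the series for 695 of the higher genes and 134 of the lower genes. All 3 hda9-1 libraries lay beyond all 11 others for 129 of the higher genes and 71 of the lower genes, and 24 and 15 genes met both. These counts describe genes already called for a difference between hda6-6 and hda9-1, and the share over all genes tested was not counted. Some of the higher genes passed the filter through hda6-6 alone, with every hda9-1 library at or below 0.1 RPKM. The counts were not tested.

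For some genes the hda9-1 libraries stood apart from all others, and examples were chosen after their values were seen. The hda6-6 libraries could differ from Col in these genes as well. AT3G15440, a RING protein gene, had 7.68, 7.43 and 7.03 RPKM in hda6-6, against 1.04, 0.972 and 1.04 RPKM in hda9-1, while Col had 2.55 to 3.63 RPKM. AT5G11330, an oxidoreductase gene, had 15.5, 13.5 and 9.95 RPKM in hda6-6, against 2.21, 1.70 and 1.36 RPKM in hda9-1, while Col had 16.2 to 18.4 RPKM. MPK3, a stress-activated protein kinase, had 123, 169 and 99.7 RPKM in hda6-6, against 42.4, 39.7 and 43.3 RPKM in hda9-1. Col had 45.7 to 72.1 RPKM for MPK3, nearer to hda9-1 than to hda6-6. DOG1, a regulator of seed dormancy, had 3.00, 4.24 and 2.51 RPKM in hda6-6, against 0.737, 1.43 and 0.891 RPKM in hda9-1, while Col had 5.26 to 6.63 RPKM. In the other direction, HIPP22, a heavy metal domain protein, had 4.50, 4.50 and 8.35 RPKM in hda6-6, against 26.1, 23.5 and 25.6 RPKM in hda9-1, while Col had 12.9 to 16.7 RPKM. DFL1, which conjugates auxin to amino acids, had 31.6, 33.8 and 30.3 RPKM in hda6-6, against 91.7, 88.8 and 84.4 RPKM in hda9-1. Col had 52.0 to 56.2 RPKM for DFL1, and the hda6-6 libraries lay below every other library as well. AT4G34790, of the SAUR family, had 4.11, 4.35 and 5.19 RPKM in hda6-6, against 15.2, 14.9 and 11.98 RPKM in hda9-1, while Col had 3.72 to 5.64 RPKM. FDH, formate dehydrogenase, had 108, 133 and 119 RPKM in hda6-6, against 264, 324 and 332 RPKM in hda9-1, while Col had 186 to 203 RPKM. In all of these the 3 hda9-1 libraries were on 1 side of every other library of the series.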

How the data were processed

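The authors isolated RNA with Trizol, selected poly-A RNA, made cDNA with random hexamers and sequenced it on an Illumina HiSeq instrument. Whether the library preparation kept strand is not given in the sources used here, so overlapping and antisense genes cannot be separated. Per the submitters' processing notes and the study's methods, bases were called with CASAVA 1.8, reads were mapped to TAIR10 with Bowtie2 (version not given in the sources used here), and RackJ computed the values. The deposited files hold RPKM per gene and library, scaled by the authors to exon length and mapped reads, and no read counts.

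The 6 libraries were compared in limma 3.58.1 (R 4.3.3) on log2(RPKM + 0.1), with an intensity trend, genotype as the only factor and 4 residual and 4.57 prior degrees of freedom. Genes needed RPKM above 0.1 in at least 3 of the 6 libraries. P-values were adjusted by Benjamini-Hochberg over all 22320 genes, and all adjusted p-values in the text come from this limma fit. Fold changes on this scale understate the change of low genes, and no fold is given against a group listed at 0. The study tested RPKM by t-tests, which limma replaced because each genotype had 3 libraries. For a single gene, an exact two-sided permutation test of 3 against 3 libraries cannot go below p = 0.1. Whether replicates were separate cultures is not stated for hda9-1, so the spread behind each p-value is that among these libraries and may be technical.

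The members and gene lists were chosen with earlier results of these data known. Genes named were HDA6 and HDA9, the 12 called genes with the largest difference in each direction among those with a mean of at least 2 RPKM, up to 4 called members of each list and direction with a mean of at least 1 RPKM or the most abundant member of a list with no call, and the 6 called transposable element genes highest in hda6-6. All other named genes, with the phosphate, sulfur, meristem and NLR lists, were chosen after their values were seen. Gene names, classes and positions came from RefSeq TAIR10.1, which held 32835 of the 33602 IDs and lacked 767. Of the tested genes, 141 had values equal to those of another gene, and 6 of these were called. On simulated data with 22320 genes, 85 of 100 genes changed by 1.5 and 97 of 100 changed by 3 on the log2 scale were recovered with 2 false calls. Depth was worked out from the smallest steps in RPKM. At that depth 26.9% to 37.1% of the low values came out whole within 0.02 reads, too few for a count test. Figures were drawn with matplotlib 3.10.9, and tables were handled with pandas 2.3.3 and numpy 2.4.6 in Python 3.11.15.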

Additional observations from a re-analysis of the deposited data

Results flagged for a closer look

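The single fve-4 library, which took no part in the comparison, held RNA from loci that are among the strongest differences between hda6-6 and hda9-1. These are listed because the level in this library was at least 10 times the highest Col library and at least 1 RPKM. AT2G01422 had 129 RPKM in fve-4, and the highest Col library had 0.868 RPKM. AT3G28899 had 33.3 RPKM in fve-4, and the highest Col library had 1.46 RPKM. AT3G29633 had 11.6 RPKM in fve-4, and the highest Col library had 0.479 RPKM. With 1 library of fve-4 there was no replicate, and these values were not tested.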

How the results depend on the processing

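The call count of 1798 (1370 higher, 428 lower) was 832 (634 and 198) with a pseudocount of 1, 4491 (2380 and 2111) with no fold threshold, and 1467 to 1972 without any 1 library. Requiring RPKM above 1 gave 891 higher genes, and quantile normalization 652 lower. The 75 called members (49 higher, 26 lower) of the lists other than phosphate, sulfur, meristem and NLR were 48 (12 lower) with a pseudocount of 1 and 131 (75 higher, 56 lower) with no fold threshold. The lower members of the same lists were 16 to 29 without any 1 library, 16 without hda6-6 replicate 1 and 17 without hda6-6 replicate 2. Counts under median-of-ratios scaling, no filter, robust estimation and all 14 libraries in the fit stayed within 1.5 times the main ones. The replicate block gave 1361 higher and 451 lower genes. Deviations of same-numbered libraries had correlations of 0.098, 0.138 and -0.0316, and those of differently numbered libraries -0.189 to 0.0906. So few values cannot settle whether the numbers pair the samples. Of 176 named genes called, 101 were called under all 16 alternatives, and 56 lost their call with a pseudocount of 1. The uncalled chloroplast gene ATCG00950, at 0.22, was -0.82 to 0.91 without any 1 library, with -0.82 without hda6-6 replicate 3 and -0.19 without hda9-1 replicate 3. Depth limits genes near 0.1 RPKM, which rest on few reads.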
